A study of Bos taurus with 20 samples.

Results

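The genes that drive and brake entry into the cell cycle were measured in the cells of the bovine ovarian follicle. The members were 3 D-type cyclins (CCND1, CCND2, CCND3), 2 E-type cyclins (CCNE1, CCNE2), the kinases CDK2, CDK4 and CDK6, and the inhibitors CDKN1A (p21) and CDKN1B (p27). They were found by gene symbol among the non-control probes of the array, and all 10 were present among 22550 genes or transcripts, on 22 spots with 20 distinct probe sequences. Of the 10 genes, 9 had 2 spots and CDKN1B had 4 spots of 2 sequences.

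The study compared theca cells (TH, the vascular layer of the follicle wall), granulosa cells (GC, the inner lining), cumulus cells (CC, the granulosa-derived cells around the egg), and oocytes. All came from 3 to 6 mm antral follicles of slaughterhouse ovaries and were labelled immature, apart from the remaining group, which was CC detached from the cumulus-oocyte complex after 4 h of in vitro maturation (IVM). TH were scraped from the follicle wall, while GC and cumulus-oocyte complexes were taken from the follicle content, and no sort of cell types within a layer was described. Each group had 4 biological replicates, each on its own custom Agilent bovine array with Cy3-labelled cRNA from 200 ng of total RNA, which made 20 arrays on 3 slides. Replicates 1 and 2 of TH, GC, CC, and oocyte lay on one slide and replicates 3 and 4 on another, whereas all 4 arrays of CC after IVM lay on a slide of their own, so that the effect of IVM and that of the slide cannot be told apart.

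D-type cyclins bind CDK4 and CDK6 in G1, and E-type cyclins bind CDK2 at the transition to S phase. Both kinds of complex phosphorylate the retinoblastoma protein, which then releases E2F factors that switch on genes for DNA replication. CDKN1A and CDKN1B bind these complexes and hold CDK2 in check. Granulosa cells proliferate under FSH until the ovulatory signal, cyclin D2 is their best-known FSH-induced cyclin, and the oocyte of an antral follicle is arrested in meiotic prophase and does not replicate its DNA.

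The probes decide what each gene value means, so those that lie in coding sequence and on which the results turn are shown first, 5′ to 3′, all 60 bases long. CCNE1 (transcript at chr18:40565286-40574820 on UMD 3.1) had probes that share a run of 27 bases, printed in capitals, and yet placed the oocyte mean at opposite ends of the groups. On probe 2 only oocyte arrays were above background, as described with the E-type cyclins. The probes of CCND1 (chr29:47544380-47553820) and CDK6 (chr4:9792303-10039520) are shown because several groups were near background on them. The coding probe of CCND2 (chr5:106253907-106276819) is shown because it repeats, with a different sequence, the fall in the oocyte on the other probe of that gene.
CCNE1 probe 1: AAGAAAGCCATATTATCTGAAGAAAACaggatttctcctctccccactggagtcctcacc
CCNE1 probe 2: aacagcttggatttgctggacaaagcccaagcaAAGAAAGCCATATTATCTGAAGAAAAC
CCND1 probe 1: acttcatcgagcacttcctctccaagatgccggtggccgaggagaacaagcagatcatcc
CCND1 probe 2: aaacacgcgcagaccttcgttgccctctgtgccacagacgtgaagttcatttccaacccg
CCND2 probe 2: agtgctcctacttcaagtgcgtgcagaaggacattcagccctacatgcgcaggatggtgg
CDK6 probe 1: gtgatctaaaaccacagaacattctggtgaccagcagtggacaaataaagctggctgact
CDK6 probe 2: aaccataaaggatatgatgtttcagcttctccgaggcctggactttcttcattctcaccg

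CCNE1, CDK2, and CDK4 were the 3 genes whose probes overlap, with shared runs of 27, 57, and 46 bases. Their paired probes are therefore not independent readings of the gene. In the other 7 genes the longest shared run was 5 or 6 bases, so a result that both probes gave came from different bases. How far apart the probes of a gene lie in the transcript was not derived.

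Values are log2 of the background-subtracted intensity relative to the 75th percentile of all probes on the same array, so 0 is the level of that percentile, and the value of a gene is the median over its spots. Levels are compared between groups for the same gene only. Between 54.2 and 62.8% of probes were well above background on the 16 somatic arrays (TH, GC, CC, and CC after IVM), and 49.3 to 68.8% on the 4 oocyte arrays, with the lowest share on oocyte replicate 2. Theca markers (CYP17A1, INSL3, COL1A1, COL1A2, ACTA2) were highest in TH, and oocyte markers (GDF9, BMP15, ZP2, ZP3, ZP4, NLRP5) in the oocyte. FSHR, CYP19A1, and AMH were highest in CC and higher in GC than in TH and oocyte, and INHBA was highest in CC after IVM. Some markers were found outside their own cell type, and their values are given beside the results they touch.

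Of the 10 members, 6 differed among TH, GC, CC, and oocyte at an adjusted p under 0.05 in the limma F-test, as did 71.3% of all genes tested. These were the 3 D-type cyclins and the 3 kinases, while the 2 E-type cyclins and the 2 inhibitors did not pass. Against the mean of the 3 somatic types, 5 members were lower in the oocyte (CCND1, CCND2, CCND3, CDK4, CDK6) and 1 was higher (CDK2), where 38.3% of all genes tested were lower and 32.9% higher. In 4 of the 5 lower members all 4 oocyte arrays lay below all 12 somatic arrays (20.6% of all genes), and for CDK2 all 4 lay above (25.3%). The median difference of the 10 members was -0.91, beside -0.52 over all genes. Restricted to the 10012 genes that every one of the 16 arrays detected above background, the median was 0.19. In samples of whole tissue layers, fewer cells of a type and less RNA per cell cannot be told apart.

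**Figure D1:**
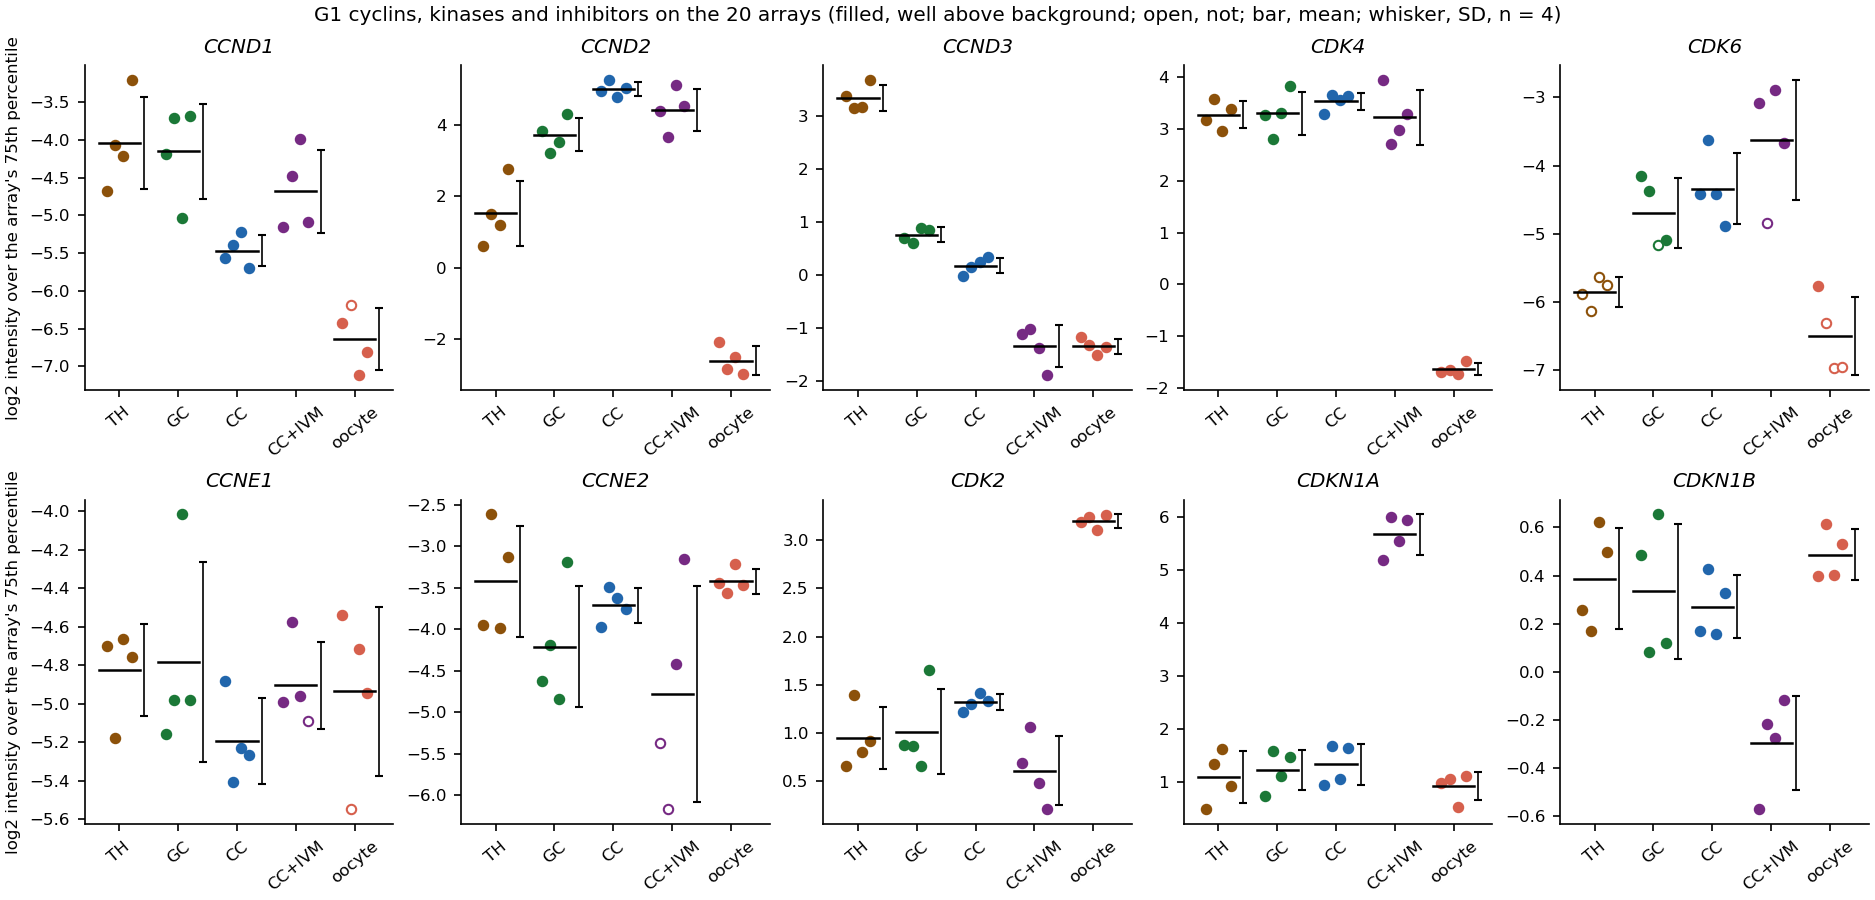
Log2 intensity relative to the 75th percentile of the array for each of the 10 genes on the 20 arrays, by group (TH, GC, CC, CC after 4 h of IVM, oocyte); filled points are well above background, open points are not, bars are means and whiskers SDs (n = 4). The oocyte points of CCND2, CCND3, and CDK4 lie below every TH, GC, and CC point, those of CDK2 lie above them, and the 4 CDKN1A values after IVM (5.18 to 5.99) lie above all others of that gene.

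CCND2, the D-type cyclin of granulosa cells, was highest in CC, next in GC, lower in TH, and lowest in the oocyte. Its values were 0.61, 1.51, 1.19, and 2.77 in TH, 3.83, 3.22, 3.51, and 4.31 in GC, and 4.95, 5.26, 4.79, and 5.02 in CC. Oocyte values were -2.07, -2.84, -2.52, and -2.99. No 2 of these 4 groups overlapped. The oocyte lay below the somatic mean by a difference of -6.02 ± 0.30 (SE, log2), or 64.9-fold (adjusted p = 4.7e-11, limma), and below CC by 195-fold. The difference of TH from GC was -2.20 ± 0.37 (adjusted p = 3.6e-04, limma) and that of GC from CC was -1.29 ± 0.37 (adjusted p = 0.039). Within slide 1 the difference of TH from GC was -2.47 (adjusted p = 0.0215). Within slide 2 it was -1.93 and not called (adjusted p = 0.066). Both probes carried the fall in the oocyte, the other probe with a difference of -5.85 ± 0.20 and the coding probe shown above with -6.18 ± 0.48, the latter with only 2 of 4 oocyte arrays above background. On the coding probe, TH replicate 4 had 0.13, against -3.51 to -2.42 on the other TH arrays, and lay within the GC range (-0.68 to 0.71). The difference of GC from CC was not called on that probe (-1.48, adjusted p = 0.15, limma). It was called on the other probe (-1.10, adjusted p = 0.0094). The summed level of the 4 GC and CC markers was 4.18 to 5.06 in TH, where 3 of the 4 were above background, and 6.79 to 8.82 in GC. Its part in the CCND2 level of TH was not tested.

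CCND3 ran in a different order over the somatic cells, with its highest level in TH. TH had 3.34 ± 0.25 (SD, n = 4), GC 0.76 ± 0.14, CC 0.18 ± 0.15, and the oocyte -1.34 ± 0.14, with no overlap between any 2 groups. TH exceeded GC by 2.58 ± 0.16 (SE, adjusted p = 1.6e-08, limma), a 5.98-fold difference, and GC exceeded CC by 0.58 ± 0.16 (adjusted p = 0.027). The oocyte differed from the somatic mean by -2.76 ± 0.13, a 6.79-fold fall (adjusted p = 1.5e-11, limma), and both probes were called in that direction. The somatic orders of CCND2 and CCND3 were thus opposite, with the steps between GC and CC the least firm. Blood and vessel markers were also found in TH. Both blood markers (PTPRC, HBB) and 2 of 3 endothelial markers (PECAM1, VWF) were above background on all 4 TH arrays. The summed level of the 3 endothelial markers was 0.43 to 2.13 in TH, -4.66 to -3.15 in GC, and -5.63 to -4.86 in CC. In the oocyte it was -1.23 to 1.01, where VWF alone was above background on all 4 arrays, with a mean of -0.59 against -0.02 in TH. The summed level of the 2 blood markers was -4.15 to -2.83 in TH, -5.26 to -3.69 in GC, and -6.30 to -6.13 in CC. PTPRC and HBB were above background on no CC array. Their part in the CCND3 level of TH was not tested.

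CCND1, the cyclin D induced by many growth factors, was dim in every group. Its values were -4.67, -4.07, -4.21, and -3.21 in TH, -4.18, -3.71, -5.04, and -3.68 in GC, and -5.56, -5.39, -5.22, and -5.70 in CC. Oocyte values were -6.43, -6.19, -7.12, and -6.81. TH and GC overlapped and did not differ beyond their spread (0.12, 95% interval -0.60 to 0.83), CC lay below both, and the oocyte lay lowest. The difference of TH from GC went in opposite directions on the probes, at 0.90 on probe 1 and -0.67 on probe 2. Neither was called (adjusted p = 0.33 for both, limma). The oocyte differed from the somatic mean by -2.08 ± 0.27 (SE, adjusted p = 4.6e-06, limma), 4.23-fold lower, with 3 of 4 oocyte arrays above background. GC exceeded CC by 1.31 ± 0.34 (adjusted p = 0.021) and TH exceeded CC by 1.43 ± 0.34 (adjusted p = 0.0036). The call of TH against CC came from probe 1, which was above background on 2 TH and 2 GC arrays and on no array of CC, CC after IVM, or oocyte. On that probe the measured difference of TH from CC was 2.29 (adjusted p = 0.0086, limma), and the bound, not itself tested, was at least 1.58-fold. On probe 2 the difference was 0.57 (adjusted p = 0.41) and was likewise not called when genes took their brightest probe (0.57, adjusted p = 0.39). The difference of GC from CC was called on neither probe alone, at 1.39 on probe 1 (adjusted p = 0.20, limma) and 1.24 on probe 2 (adjusted p = 0.11). With the brightest probe it was not called either (adjusted p = 0.096). The oocyte differed from CC by -1.17 (adjusted p = 0.0061, limma). That difference was -0.55 on probe 1 (adjusted p = 0.43) and -1.78 on probe 2 (adjusted p = 0.0023). Within slide 1 it was -0.83 and not called (adjusted p = 0.072), and within slide 2 it was -1.50 (adjusted p = 0.037). At the level of the gene, the difference of TH from CC fell to 0.34 with normexp background correction (adjusted p = 0.14) and to 0.43 in the deposited log2 values (adjusted p = 0.075). It was called in neither slide alone, at 1.11 within slide 1 (adjusted p = 0.070, limma) and 1.75 within slide 2 (adjusted p = 0.065).

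The 3 steps between GC and CC, where 9.88% of all genes were called, were the least firm calls among the D-type cyclins. CCND1 lost its call without CC replicate 1 or 4 or GC replicate 2 or 4 (1.15 to 1.28, adjusted p 0.053 to 0.066, limma). CCND2 lost it without any 1 CC array, GC replicate 1, 2, or 3, TH replicate 2, or oocyte replicate 3 (-1.36 to -1.12, adjusted p 0.051 to 0.12) and with the replicate number as a block (-1.29, adjusted p = 0.052). CCND3 lost it without CC replicate 1, 2, or 3 or GC replicate 3 (0.52 to 0.60, adjusted p 0.052 to 0.087). CCND3 was called on neither probe alone (0.64, adjusted p = 0.25, and 0.52, adjusted p = 0.091). It was also lost in the deposited log2 values (0.35, adjusted p = 0.27) and with the array median (0.51, adjusted p = 0.091). With the brightest probe (0.52, adjusted p = 0.071) or all 20 arrays in 1 fit (0.58, adjusted p = 0.078) it was not called either. Within slide 1 or slide 2 alone none of the 3 passed, with differences of 1.53 and 1.10 for CCND1, -1.57 and -1.0 for CCND2, and 0.57 and 0.59 for CCND3. The direction was the same in each slide. Theca markers were also found in GC and CC. The summed level of the 5 theca markers was 9.17 to 9.70 in TH, 4.90 to 6.84 in GC, and 4.66 to 5.03 in CC. Its part in the steps of CCND1 and CCND3 between GC and CC was not tested.

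CDK4, the main kinase partner of D-type cyclins, stood at one level in the somatic cells and far lower in the oocyte. Its values were 3.17, 3.57, 2.96, and 3.38 in TH, 3.26, 2.81, 3.31, and 3.83 in GC, and 3.29, 3.65, 3.55, and 3.64 in CC, while the oocyte arrays had -1.69, -1.64, -1.73, and -1.47. The 3 somatic groups overlapped, and no pair of them was called. The widest of these differences, TH from CC, was -0.26, with a 95% interval from -0.69 to 0.17. The oocyte lay below the somatic mean by a difference of -5.00 ± 0.16 (SE), or 32.1-fold (adjusted p = 3.1e-13, limma). Within slide 1 the difference was -4.96 and within slide 2 it was -5.04.

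CDK6, the other kinase of D-type cyclins, was near background. It was above background on no TH array, 3 GC arrays, all 4 CC arrays, and 1 oocyte array, with values of -5.17 to -4.15 in GC, -4.88 to -3.62 in CC, and -6.96 to -5.77 in the oocyte. TH differed from GC by -1.15 (adjusted p = 0.015, limma) and from CC by -1.51 (adjusted p = 0.0018). Both differences used measured TH signal, which was above background on no array. As a bound, which was not itself tested, GC was at least 1.51-fold and CC at least 1.93-fold higher than TH. The bound sets the brighter mean against the lowest signal well above background on the dim arrays, or the measured signal where that was higher. The GC call was lost without GC replicate 1 (-0.97, adjusted p = 0.054) and within slide 2 (-0.56, adjusted p = 0.20). It was also lost with normexp background correction (-0.53, adjusted p = 0.10) and in the deposited log2 values (-0.48, adjusted p = 0.068), and the CC call was lost with normexp (-0.38, adjusted p = 0.28). The oocyte differed from CC by -2.16 ± 0.32 (adjusted p = 2.1e-05) and from the somatic mean by -1.54 ± 0.26 (adjusted p = 7.6e-05), and it overlapped TH. Both of the CDK6 probes shown above were called lower in the oocyte.

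CDK2, the kinase of E- and A-type cyclins, was the only member called higher in the oocyte. Its values were 3.18, 3.24, 3.10, and 3.26 in the oocyte, against 0.66, 1.40, 0.81, and 0.92 in TH, 0.87, 0.87, 0.66, and 1.66 in GC, and 1.22, 1.31, 1.42, and 1.34 in CC. The 4 oocyte arrays had an SD of 0.07 and lay above all 12 somatic arrays, while the somatic groups overlapped. The difference from the somatic mean was 2.10 ± 0.17 (SE), or 4.29-fold (adjusted p = 1.4e-08, limma). It was 2.16 within slide 1 and 2.05 within slide 2. The order after the oocyte was CC, GC, TH, and neither step was called (0.31 with adjusted p = 0.44, and 0.07 with adjusted p = 0.84).

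The 6 calls between oocyte and somatic mean kept their direction and their call under all 33 alternative settings, single probes and left-out replicates among them. Side by side, the 3 comparisons of the oocyte with TH, GC, and CC, which share the oocyte arrays, gave -4.13, -6.32, and -7.61 for CCND2, -4.68, -2.10, and -1.52 for CCND3, and -4.91, -4.94, and -5.17 for CDK4. For CDK2 they gave 2.25, 2.18, and 1.88. CCND2 thus stood farthest from the oocyte in CC and CCND3 in TH, as their somatic orders set. Over all 6 pairs of the 4 cell types, 27 of 60 tests of the members were called. These were 3 of 10 for TH and GC (26.3% of all genes), 4 for TH and CC (31.8%), 3 for GC and CC, 5 for oocyte and TH (64.6%), 6 for oocyte and GC (68.6%), and 6 for oocyte and CC (63.7%).

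**Figure D2:**
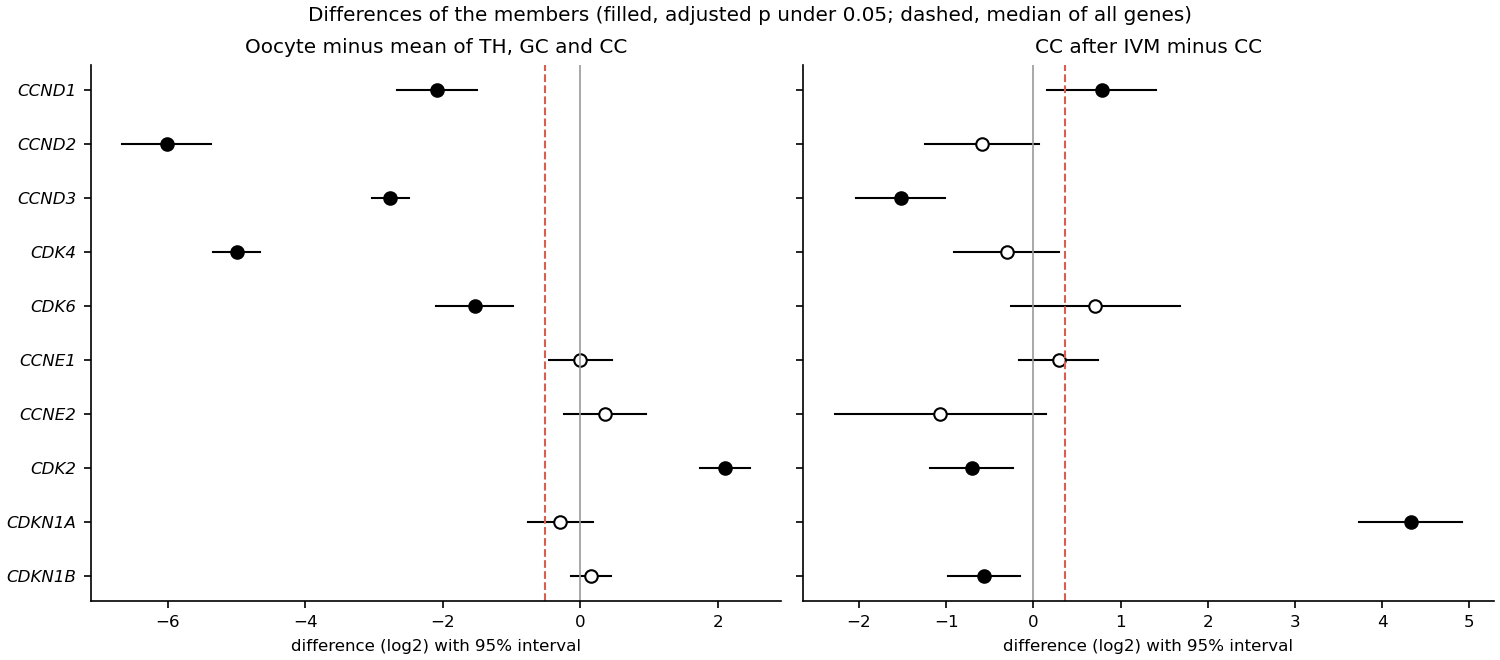
Difference of the oocyte from the somatic mean (left) and of CC after IVM from CC (right) for the 10 genes, in log2 units with 95% intervals; filled points had an adjusted p under 0.05, and the dashed line is the median of all genes (-0.52 and 0.37). CCND2 and CDK4 lie farthest to the left in the oocyte, and CDKN1A lies farthest to the right after IVM, at 4.33.

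At the level of the gene, the E-type cyclins gave no call in the fit used throughout (75th percentile scaling, no replicate block, no arrayWeights). For CCNE1 the oocyte differed from the somatic mean by -0.00 ± 0.22 (SE, adjusted p = 0.997, limma), and the order GC, TH, oocyte, CC had no called step. It was called lower with normexp (-1.17, adjusted p = 1.0e-06) and in the deposited log2 values (-0.46, adjusted p = 0.0013). The gene level hid a disagreement between the overlapping probes shown above. On probe 1, the values were -2.88 to -2.16 in TH, -3.14 to -2.15 in GC, and -3.82 to -3.13 in CC, while oocyte arrays had -4.91 to -3.97. All 4 oocyte arrays lay below all 12 somatic arrays, and the difference was -1.47 ± 0.22 (adjusted p = 2.8e-05). On probe 1 TH exceeded CC by 1.02 (adjusted p = 0.010, limma), and the oocyte differed from CC by -0.91 (adjusted p = 0.0094). The differences of TH from GC (0.36, adjusted p = 0.41) and of GC from CC (0.66, adjusted p = 0.18) were not called.

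On CCNE1 probe 2, the oocyte arrays gave -5.11, -6.19, -5.35, and -5.32, against -7.48 to -6.92 in TH, -7.20 to -5.88 in GC, and -7.33 to -6.37 in CC. Oocyte replicate 2 lay within the range of GC. Probe 2 was above background on 3 oocyte arrays and on no array of TH, GC, CC, or CC after IVM. The oocyte mean of probe 2 (-5.49) was not above the lowest signal well above background in those groups, so no fold is given. Its difference from the somatic mean, 1.46, was taken against somatic signal that was not above background. The gene value is the median of both probes. The capitals above mark where the sequences coincide, and the probes differ outside them, probe 1 extending toward the 3′ end and probe 2 toward the 5′ end. Which of them reads CCNE1 in the oocyte was not tested.

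CCNE2 had values of -3.99 to -2.61 in TH, -4.84 to -3.18 in GC, and -3.98 to -3.49 in CC, and oocyte arrays had -3.56 to -3.21. All of these arrays were above background and the groups overlapped. The oocyte differed from the somatic mean by 0.36 ± 0.28 (SE), with a 95% interval from -0.24 to 0.96 (adjusted p = 0.25, limma). With normexp background correction the difference turned to -0.44 (adjusted p = 0.0012), while the median of all genes moved to -1.30 under that correction. CCNE2 was called higher in the oocyte with arrayWeights (0.50, adjusted p = 0.033) and in the deposited log2 values (0.37, adjusted p = 0.041).

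**Figure D3:**
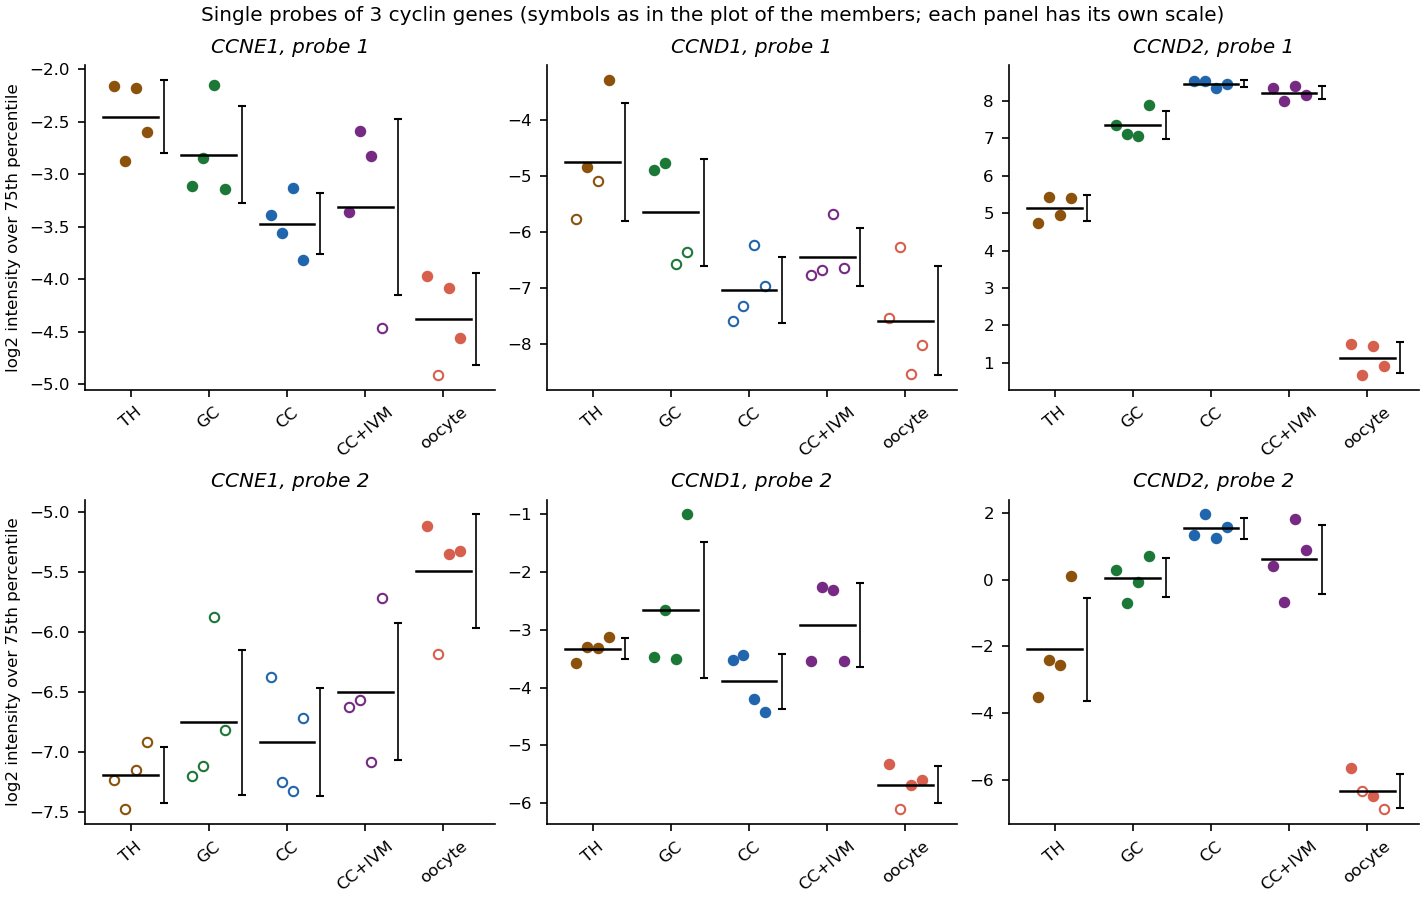
Log2 intensity relative to the 75th percentile of the array for each probe of CCNE1, CCND1, and CCND2 on the 20 arrays; each panel has its own scale, filled points are well above background, bars are means and whiskers SDs (n = 4). The oocyte mean lies lowest on CCNE1 probe 1 and highest on CCNE1 probe 2, where only oocyte points are filled, whereas both CCND2 probes put the oocyte lowest.

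The inhibitors did not separate the cell types. CDKN1A (p21), a stress-induced inhibitor of CDK2, had 1.10 ± 0.49 (SD, n = 4) in TH, 1.23 ± 0.38 in GC, and 1.34 ± 0.39 in CC, and the oocyte had 0.93 ± 0.26. The oocyte differed from the somatic mean by -0.29, with a 95% interval from -0.76 to 0.18 (adjusted p = 0.23, limma). CDKN1B (p27) had 0.39 ± 0.21 in TH, 0.33 ± 0.28 in GC, and 0.27 ± 0.13 in CC, and the oocyte had 0.49 ± 0.11. Its difference was 0.16, with an interval from -0.13 to 0.44 (adjusted p = 0.29). Both inhibitors were above background on all 20 arrays, and for both the groups overlapped. In the deposited log2 values CDKN1B was called higher in the oocyte (0.77, adjusted p = 1.9e-05) and the CDKN1A difference was 0.33.

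In CC after 4 h of IVM, both inhibitors were among the called members, one in each direction. Against CC, 5 of the 10 members were called, 2 higher (CDKN1A, CCND1) and 3 lower (CCND3, CDK2, CDKN1B), where 30.3% of all genes were called higher and 15.5% lower. The 5 called members were also those whose 4 arrays after IVM did not overlap with the 4 CC arrays (29.1% of all genes higher, 14.9% lower). The median over the members was -0.44, beside 0.37 over all genes and 0.05 for the 11891 genes detected above background by each of the 8 arrays.

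CDKN1A rose most of the members. It had 5.18, 5.99, 5.54, and 5.94 after IVM and 0.95, 1.69, 1.06, and 1.65 in CC, without overlap with these or any other arrays of the series. The rise was 4.33 ± 0.27 (SE), or 20.1-fold (adjusted p = 6.5e-06, limma), and it was 4.34 on probe 1 and 4.31 on probe 2, which share no run over 5 bases. Leaving out any 1 array gave 4.20 to 4.49, and the rise was called under all 23 alternatives. The genes HAS2, AREG, and EREG, which mark cumulus expansion, were above background on all 4 arrays after IVM, and AREG and EREG on no CC array. PTX3, the other expansion marker on the array, had -0.77 ± 0.98 (SD, n = 4) after IVM and -0.66 ± 0.52 in CC. The summed level of the 4 expansion markers found on the array was 2.29 to 3.03 after IVM and -1.30 to -0.17 in CC.

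CCND3 fell after IVM by 1.52 on the log2 scale (SE 0.23), or 2.87-fold (adjusted p = 8.4e-04, limma), from -0.01, 0.16, 0.24, and 0.34 in CC to -1.10, -1.01, -1.37, and -1.88. Both of its probes were called, and the fall was called under all 23 alternatives. CCND2 had 4.38, 3.67, 5.11, and 4.52 after IVM and overlapped with CC. Its difference was -0.58, with a 95% interval from -1.24 to 0.07 (adjusted p = 0.12). CCND2 was called lower under 4 of the 23 alternatives. These were the fit without IVM replicate 3 (-0.82, adjusted p = 0.028) and the deposited log2 values (-1.02, adjusted p = 0.011). The others were normexp (-0.63, adjusted p = 0.025) and the slide as a random block (-0.58, adjusted p = 0.017).

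CCND1 had -5.16, -4.48, -4.00, and -5.09 after IVM, a difference of 0.78 ± 0.28 (SE) from CC, or 1.72-fold (adjusted p = 0.044, limma). The call was lost without any 1 CC array or IVM replicate 2 or 3 (0.56 to 0.87, adjusted p 0.061 to 0.10). On the single probes the difference was 0.59 (adjusted p = 0.20) and 0.98 (adjusted p = 0.067). It was also lost with quantile normalization, which set the median of all genes to 0.01 (0.51, adjusted p = 0.30).

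CDK2 had 0.69, 1.06, 0.48, and 0.21 after IVM, below all 4 CC arrays. The difference was -0.71 ± 0.21 (SE, adjusted p = 0.025, limma), and the call was lost without any 1 CC array or IVM replicate 4 (-0.74 to -0.57, adjusted p 0.050 to 0.066). CDKN1B had -0.57, -0.22, -0.27, and -0.12 after IVM, below all 4 CC arrays, a difference of -0.57 ± 0.18 (adjusted p = 0.031). It was lost without any 1 CC array (-0.60 to -0.51, adjusted p 0.057 to 0.087) and was not called on probe 2 alone (-0.49, adjusted p = 0.078). The oocyte markers moved between these groups as well. Their summed level was -0.83 to 1.59 in CC and -2.64 to -0.84 after IVM, with all 6 and 3 of 6 above background, and 7.96 to 8.37 in the oocyte. Their part in the fall of CDK2 was not tested.

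CDK4, CDK6, and the E-type cyclins were not called after IVM. CDK4 differed by -0.31 (95% interval -0.91 to 0.30) and CDK6 by 0.71 (-0.25 to 1.68), the latter with IVM replicate 2 not above background and 1.12 without it (adjusted p = 0.026, limma). CCNE1 differed by 0.29 (-0.16 to 0.74). CCNE2 differed by -1.07 (-2.28 to 0.15), with IVM replicates 1 and 2 not above background and the widest spread of any member (SD 1.30). Without IVM replicate 4 the CCNE2 difference was -1.61 (adjusted p = 0.014), and its probe 2 alone gave -1.50 (adjusted p = 0.018) where probe 1 gave -0.64 (adjusted p = 0.54).

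Among the other genes of the pathway, most of those of CDK activation and turnover and of replication and proliferation were higher in the oocyte. Of the 15 genes of CDK activation and turnover, 13 were higher, 2 lower, and 0 uncalled, with a median of 2.80, where 32.9% of all genes were higher and 38.3% lower, with a median of -0.52. CKS1B, the cofactor with which SKP2 recognises p27, was higher by 5.77 ± 0.27 (SE), CDC25A, a phosphatase that activates CDK2, by 4.67 ± 0.22 against somatic groups in which 3 of 12 arrays were above background, and CUL1, the scaffold of the SCF ubiquitin ligase, by 4.45 ± 0.38. WEE1, a kinase that inhibits CDKs, fell by 6.13 on the log2 scale and was above background on 1 oocyte array, and RBX1, the RING subunit of the same ligase, fell by 1.41. The 13 higher genes were not activators alone. They included FBXW7 (2.35) and FBXO4 (3.04), which mark cyclins E and D for degradation, and GSK3B, a kinase that prepares cyclin D for it, all 3 named after their values were seen.

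Of the 15 replication and proliferation genes, 11 were higher in the oocyte, 0 lower, and 4 uncalled, with a median of 2.09, beside the same shares of all genes. The largest differences were 4.87 ± 0.35 (SE) for CDC6, which loads the replicative helicase, 4.45 ± 0.35 for cyclin A2 (CCNA2), a partner of CDK2, and 3.45 ± 0.30 for the helicase subunit MCM4. Of the 13 RB and E2F genes, 7 were higher, 3 lower, and 3 uncalled, with a median of 0.37. TFDP2, a dimer partner of the E2Fs, was higher by 3.41 and E2F1, above background on 6 of 12 somatic arrays, by 3.07, E2F2 was at least 1.32-fold higher, and E2F6, a repressor, fell by 1.77 and TFDP1, another dimer partner, by 1.38. RBL1 (p107) fell by 0.71.

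Of the 13 stress response and FOXO genes, 6 were higher, 5 lower, and 2 uncalled in the oocyte, with a median of 0.20, nearer to the shares of all genes (32.9% higher, 38.3% lower) than the lists of activation and replication. MYC, which induces CCND2 and CDK4, fell by 8.04 on the log2 scale, the antiproliferative gene BTG2 by 3.54, and FOXO4, a transcription factor that induces CDKN1B, by 2.63. KLF4 was higher by 3.41, MDM4 by 2.64, and FOXO3, which restrains follicle activation, by 2.21. Of the 6 other CDK inhibitors, 0 were higher, 2 lower, and 4 uncalled, with a median of -0.65. CDKN2C (p18), an inhibitor of CDK4 and CDK6, was above background on all 12 somatic arrays and no oocyte array, at least 2.43-fold lower there, and CDKN3, a phosphatase that acts on CDK2, fell by 2.49. Both called inhibitors and CDK4 itself were thus lower in the oocyte.

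After IVM, 11 of the 15 replication and proliferation genes were lower than in CC, 1 was higher, and 3 were uncalled, with a median of -1.47, where 15.5% of all genes were lower and 30.3% higher. MCM2, MCM3, and MCM5, subunits of the replicative helicase, fell by 3.22, 3.20, and 3.10 on the log2 scale, MCM2 to 1 of 4 arrays above background. RRM2, a subunit of ribonucleotide reductase, rose by 1.45 ± 0.23 (SE). Of the 13 stress response and FOXO genes, 3 were higher, 7 lower, and 3 uncalled, with a median of -1.12. GADD45A, a growth arrest gene induced by DNA damage, rose by 3.10 ± 0.19, BTG2 by 1.80, and MDM4 by 1.11. GADD45G fell by 3.40, MYC by 2.51, and the stress-induced sestrin SESN1 by 2.42.

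In the other lists, 13 of 34 genes were called after IVM, beside 45.8% of all genes. Of the 6 other inhibitors, CDKN1C (p57), of the same family as p21 and p27, rose by 2.19 ± 0.55 (SE), CDKN2C fell by 2.20 to 1 array above background and CDKN2D (p19) by 1.39, and 3 were uncalled (median -0.07). Of the 15 activation and turnover genes, 2 were higher, 4 lower, and 9 uncalled (median 0.02). SKP1 rose by 1.03 and CDK7 by 0.58, and CDC25B, FBXO4, and WEE1 fell by 2.49, 1.78, and 1.51. Of the 13 RB and E2F genes, 2 were higher, 2 lower, and 9 uncalled (median 0.03). E2F6 and E2F4, which act mainly as repressors, rose by 0.84 and 0.83, while RBL2 (p130) fell by 1.19. RBL1 was called lower and was above background on all 4 CC arrays and on no array after IVM, where its CC mean (-5.18) did not exceed the lowest signal well above background, so no fold is given.

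**Figure D4:**
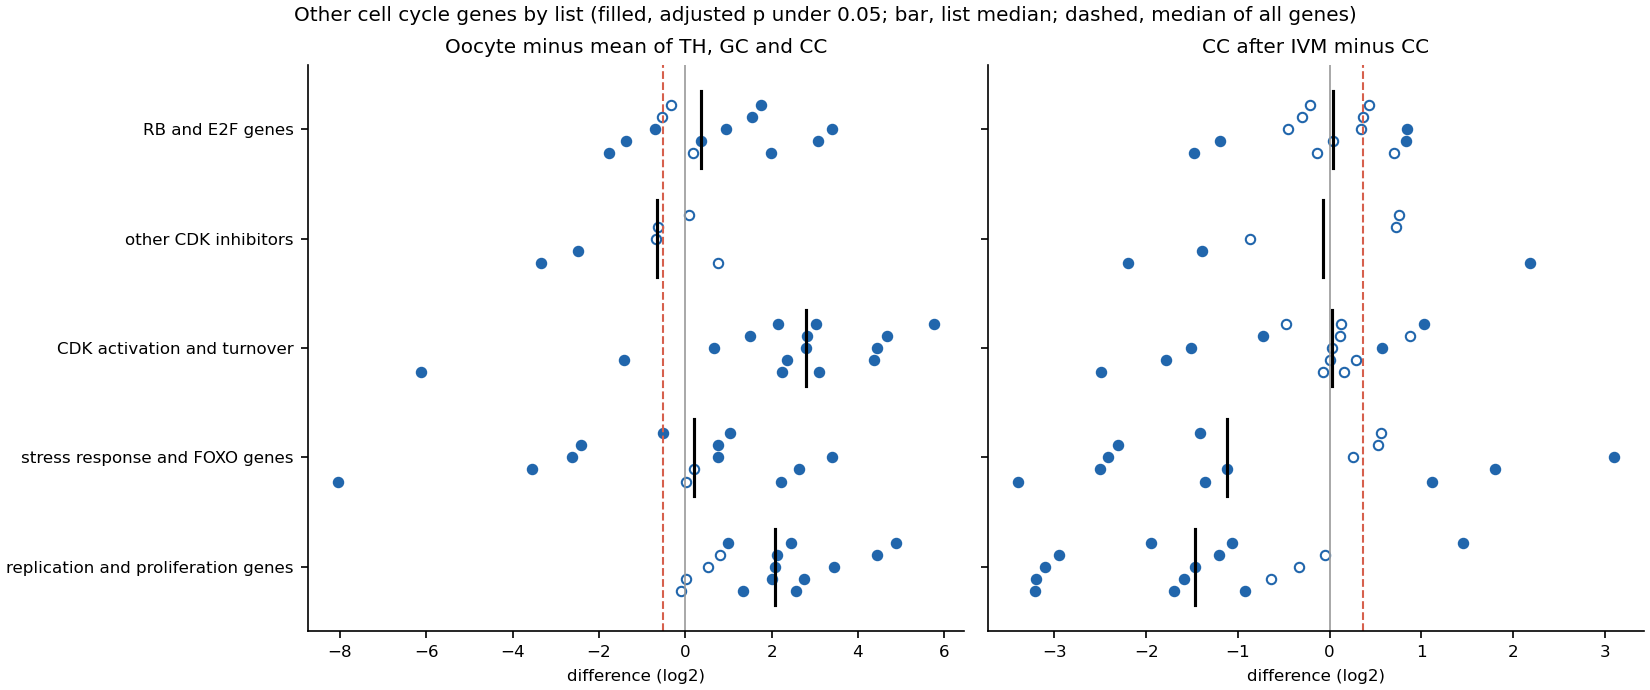
Differences in log2 units of the other cell cycle genes in 5 lists, for the oocyte minus the somatic mean (left) and CC after IVM minus CC (right); each point is a gene, filled at an adjusted p under 0.05, the bar is the median of the list, and the dashed line is the median of all genes. The bar of the replication and proliferation genes lies at 2.09 in the oocyte and at -1.47 after IVM.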

How the data were processed

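For each of the 20 arrays the authors deposited the Feature Extraction 10.7.3.1 output, in which every spot has an intensity as mean and median pixel signal and a processed signal after background subtraction, with no normalization between arrays. They also deposited log2 values for all arrays, each column of which equalled log2 of the median signal minus the median of the array. Probe annotation was on UMD 3.1. For hybridisation and scanning, further settings are not given in the sources used here.

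Control spots and outlier-marked spots (0 to 23 per array) were dropped. From the log2 processed signals of an array its 75th percentile was subtracted, and a gene took the median of its spots. No spot was saturated. Of 61325 probes, 9779 had no symbol, and 734 of these were named by accession through RefSeq. Fits used limma 3.58.1 (lmFit, eBayes) run under R 4.3.3 with the data.table package (version 1.17.8), and Benjamini–Hochberg adjustment covered 22550 genes at a threshold of 0.05, with 16 arrays for the cell types and 8 for IVM. A group was given a bound where none of its 4 arrays was well above background. Tables and figures used Python 3.11.15, pandas 2.3.3, numpy 2.4.6, and matplotlib 3.10.9. The fits were tested on simulated data.

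All 10 members are named, with up to 3 called genes per list and direction in the oocyte and IVM comparisons, the 2 genes most correlated with each member, and markers. The members and lists were chosen with earlier results of these data known. Some genes that these rules would name are not reported here, and list counts leave them out. Same-numbered TH and GC arrays, which shared a slide, deviated together (r = 0.12 to 0.34), those of the other comparisons not in every pair. Fits had no replicate block, and the block is an alternative. The number of arrays limits the precision.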

Additional observations from a re-analysis of the deposited data

Results flagged for a closer look

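For CCNE1, GC replicate 3 had -4.02, while the other 3 GC arrays had -5.16 to -4.98, a gap that passed the 95% critical value of Dixon's test. It was the only such array among 50 groups of 4 tested, and chance gives about 1 in 20. The same array had the highest GC value on each of the CCNE1 probes.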

How the results depend on the processing

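The count of members that differed among the 4 cell types (6) was 6 to 7 without any 1 array and 6 with the methods' analysis of variance, that of members lower in the oocyte (5) was 5 and higher (1) was 1 without any 1 array, and that of calls over the 6 pairs (27) was 24 to 28. The count lower in the oocyte was 7 with normexp, which added CCNE1 and CCNE2, and 6 in the deposited log2 values and with the brightest probe (CCNE1 added in both) and with the percentile over detected probes (CDKN1A added, -0.51, adjusted p = 0.049, limma). The count higher in the oocyte was 3 in the deposited log2 values, where CCNE2 and CDKN1B were added, and 2 with arrayWeights. After IVM, the count of higher members (2) was 1 with quantile normalization, a percentile taken over probes that all arrays detected, the brightest probe, all 20 arrays in 1 fit, arrayWeights, or eBayes with trend and robust, in each of which CCND1 was lost, and 4 with normexp, which added CCNE1 and CDK6. The count of lower members (3) was 6 in the deposited values and 5 with the slide as a random block. Without any 1 array these counts were 1 to 2 and 1 to 4. Within-slide values and a fixed slide block could not be fitted for IVM, since all its arrays lay on one slide. For the same reason the random slide block, though it could be fitted, cannot tell the effect of the slide from that of IVM.

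Of the differences that were not called, 5 changed sign. The CCNE1 difference of the oocyte was 0.10 with quantile normalization, 0.17 with the array median, 0.0061 within slide 1, 1.46 on probe 2 alone (a setting added after seeing the data, on which no somatic array was above background), and -0.13 to 0.20 without any 1 array, while it was called lower with normexp (-1.17), in the deposited values (-0.46), and with the brightest probe (-1.47). With normexp, CCNE2 was -0.44 in the oocyte and 0.25 after IVM. CDKN1A in the oocyte was 0.33 in the deposited values, and CDKN1B was -0.061 with the percentile over detected probes. The causes were not tested.

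With the replicate number as a block, members lower after IVM numbered 1, since CDK2 (-0.71, adjusted p = 0.063, limma) and CDKN1B (-0.57, adjusted p = 0.082) were lost, and CCND2 between GC and CC was lost (-1.29, adjusted p = 0.052). CCNE2 between oocyte and GC was gained (0.79, adjusted p = 0.042), and the block changed no other member call. Deviations of same-numbered arrays correlated over 0.1 in 4 of 4 pairs of TH and GC (0.12 to 0.34), 3 of 4 of GC and CC (0.02 to 0.22), 2 of 4 of TH and CC (-0.01 to 0.19), and 0 of 12 that held an oocyte array, and in 0 of 4 of CC and CC after IVM (-0.14 to -0.00). Of 16 arrays 12 correlated best with their own number, as a hint from the data, and of the 8 arrays of the IVM fit 0 did.

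The median of all genes in the oocyte comparison ran from -1.30 with normexp to -0.01 with quantile normalization, and after IVM from 0.01 to 0.57. Dim genes (CCND1, CCNE1, CCNE2, CDK6) are the ones that signal over background limits.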

Other observations

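The genes whose log2 values ran most like each member over the 20 arrays were sought among 14041 genes, as a description, since the 20 points fall into 5 groups. For CDK2, NUSAP1, known from the mitotic spindle, is given (Pearson r = 0.98). For CDK4 they were WBP1 and RPL22L1 (0.99 for both), and for CCND2 they were HSD17B1 and ST3GAL-IV (0.99 for both), of which HSD17B1 makes estradiol from estrone in granulosa cells. CCND3 ran most like PECR and ATP2A3 (both 0.97), CCND1 like FHL3 and BOK (0.91 for both), and CDK6 like ZNF536 and RSC1A1 (both 0.92). CDKN1A ran most like USP12 (0.98) and BIRC2 (0.97), and CDKN1B like RBL2 (0.91), a member of the RB family, and PPP1R11 (0.89). The E-type cyclins had weaker likeness, CCNE2 with BAI2 (0.80) and MON2 (0.79), and CCNE1, whose probes disagreed, with SOHLH1 (0.65) and NYX (0.60).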
